A study of Mus musculus with 18 samples.

Results

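Mammary glands of 6-week-old virgin female mice that lack the tyrosine kinase domain of the receptor Ron (RonTK-/-) were compared with glands of RonTK+/+ mice of the same age. The comparison used 6 of the 18 arrays of the series, 3 RonTK-/- and 3 RonTK+/+, chosen by the genotype and age in the array titles, and covered all 18193 genes that had a probe set of their own. The other arrays were glands of both genotypes at 5 and 7 weeks. They entered the fit as groups of their own, and their spread also enters every SE and p-value. RNA came from whole glands, which hold ducts, adipose tissue, vessels and lymphoid tissue, so fewer cells of a type and less RNA per cell cannot be told apart. The labels name no strain background and no cell type to which the deletion was restricted. They also do not state whether the 3 arrays of a group came from separate animals, so p-values measure the spread between arrays, which may be technical.

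The Mst1r gene encodes Ron, a receptor kinase of the Met family that is made by epithelial cells and by resident macrophages. Mst1 encodes its ligand, macrophage-stimulating protein, which circulates as an inactive chain made in the liver and is cleaved by serine proteases. The activated receptor signals through adaptor proteins to the PI3 kinase and MAP kinase pathways. At this age the ducts of the virgin gland are growing through the fat pad.

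The deposited value is a linear ratio, and a ratio of 1 stands for the median of the RonTK+/+ arrays of all ages in 87.37% of the 45101 probe sets. A ratio carries no absolute level, so marker genes were compared between arrays and could not be called present or absent. A log2 difference below is the mean log2 ratio of RonTK-/- arrays minus that of RonTK+/+ arrays, with its standard error (SE) from limma and an adjusted p over all genes. Genes with an adjusted p under 0.05 were called, and the number of arrays limits the precision. Arrays of a gene are said to lie apart where every RonTK-/- array was on the same side of every RonTK+/+ array.

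RonTK+/+ array 1 stood apart from the other 5 arrays. It had 496 genes more than 2-fold above and 440 more than 2-fold below their median in the other arrays, against 7 to 149 above and 5 to 67 below for the remaining arrays. Its log2 ratios correlated with those of the other arrays at Pearson's r of -0.42 to -0.11 across genes, and the other arrays correlated among themselves at 0.71 to 0.87. These ratios are relative to RonTK+/+ arrays of all ages, so the correlations depend on that baseline. RonTK+/+ array 1 was the only one of the 6 arrays rich in skeletal muscle transcripts, and all 23 muscle genes measured had their highest ratio there. Their median log2 ratio was 0.58 in that array and -6.14 to -3.76 in the other arrays. For muscle genes it was thus the other 5 arrays that lay far from the baseline. RonTK-/- array 1 and RonTK+/+ array 1 carried epidermal transcripts, and RonTK-/- array 3 had the highest ratio of 32 of 36 interferon response genes. List medians are therefore also given with single arrays left out where that turns or moves them most. With the muscle mean of each array as a covariate the same 3 genes were called as without it, and the part of lymphoid, epidermal and interferon transcripts in other differences was not tested.

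**Figure D1:**
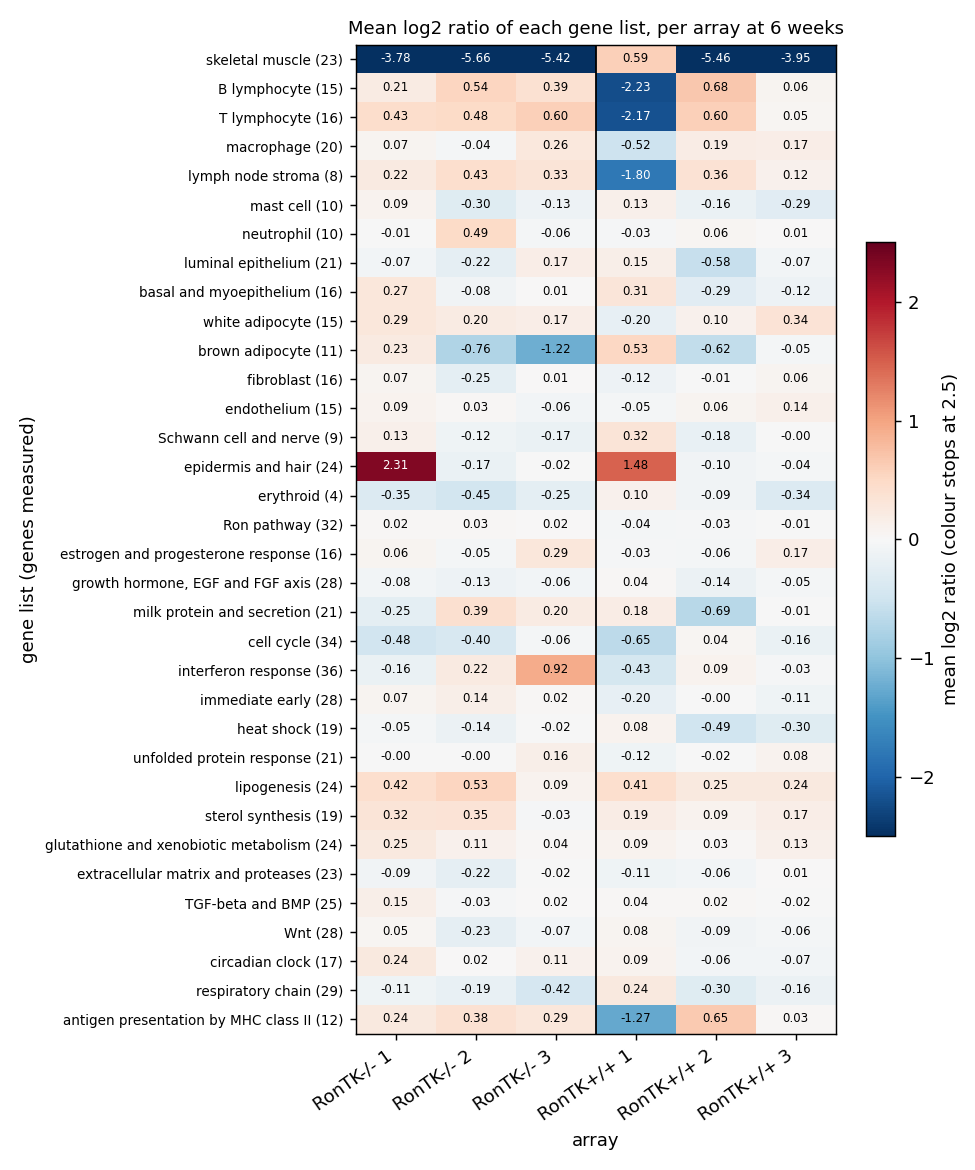
Mean log2 ratio of each of the 34 gene lists (rows, number of genes measured in parentheses) on each of the 6 arrays (columns, RonTK-/- left and RonTK+/+ right of the line), with the colour scale stopping at 2.5. The skeletal muscle mean was 0.59 in RonTK+/+ array 1 and between -5.66 and -3.78 in the other arrays, while the lymphocyte means were lowest in that array.

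The ratio of the only probe set of Mst1r was not lower in RonTK-/- glands, although signal over background is unknown. Its ratios were 1.56, 1.41 and 1.32 in RonTK-/- arrays, against 1.16, 1.00 and 1.13 in RonTK+/+ arrays, with means of 1.43 ± 0.124 and 1.10 ± 0.0861 (SD, n = 3 each). The arrays lay apart, with the higher ratios in RonTK-/- glands, but the difference of 0.38 ± 0.23 (SE) was not called (limma adjusted p = 0.831). The sources used here do not say whether this probe set lies in the deleted part of the gene, and it cannot serve as a check of genotype. The ligand gene Mst1 had ratios of 0.898, 0.953 and 0.898 in RonTK-/- arrays, against 1.01, 1.03 and 0.882 in RonTK+/+ arrays. These overlapped, and Mst1 differed by -0.09 ± 0.09 (adjusted p = 0.85).

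At 6 weeks, 3 of 18193 genes were called (0.0165%), with lower Zfp949 and Pxylp1 and higher C920006O11Rik in RonTK-/- glands. Zfp949, which encodes a zinc finger protein, had ratios of 0.228, 0.223 and 0.202 in RonTK-/- arrays, against 0.853, 1.14 and 0.947 in RonTK+/+ arrays. The means were 0.217 ± 0.0138 in RonTK-/- glands and 0.979 ± 0.145 in RonTK+/+ glands (SD, n = 3 each), so the highest RonTK-/- array lay far below the lowest RonTK+/+ array. Zfp949 fell by 2.16 ± 0.16 on the log2 scale (SE, adjusted p = 4.87e-05), or 4.48-fold, and its pair of probe sets differed by -2.13 and -2.19.

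Pxylp1 encodes a phosphatase that acts on xylose in the linker of glycosaminoglycan chains. Its ratios were 0.470, 0.394 and 0.427 in RonTK-/- arrays, against 0.894, 1.03 and 1.05 in RonTK+/+ arrays. Pxylp1 fell by 1.20 ± 0.11 (SE, adjusted p = 0.000209), or 2.3-fold, and its 3 probe sets agreed in direction but not in size, at -1.54, -1.73 and -0.34. The RIKEN gene C920006O11Rik had ratios of 3.10, 2.79 and 2.20 in RonTK-/- arrays, against 0.768, 1.03 and 1.13 in RonTK+/+ arrays. C920006O11Rik rose by 1.47 ± 0.16 (SE, adjusted p = 0.00168), or 2.77-fold, with 2.31 in one probe set and 0.63 in the other.

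Without RonTK+/+ array 1 the same 3 genes were called, with differences of -2.26 for Zfp949, -1.28 for Pxylp1 and 1.31 for C920006O11Rik. With replicate numbers of each age as blocks, Zfp949 alone was called, since Pxylp1 had an adjusted p of 0.0522 and C920006O11Rik 0.229. After quantile normalization 0 genes were called with limma, at an adjusted p of 0.774 for Zfp949 (difference -1.90), while the 3 differences kept their direction. Without correction, 1119 of 18193 genes had a limma p under 0.05, with 327 higher and 792 lower in RonTK-/- glands. The count was 517 without RonTK+/+ array 1. A share of 0.05 of all genes would pass that threshold with no difference between genotypes.

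**Figure D2:**
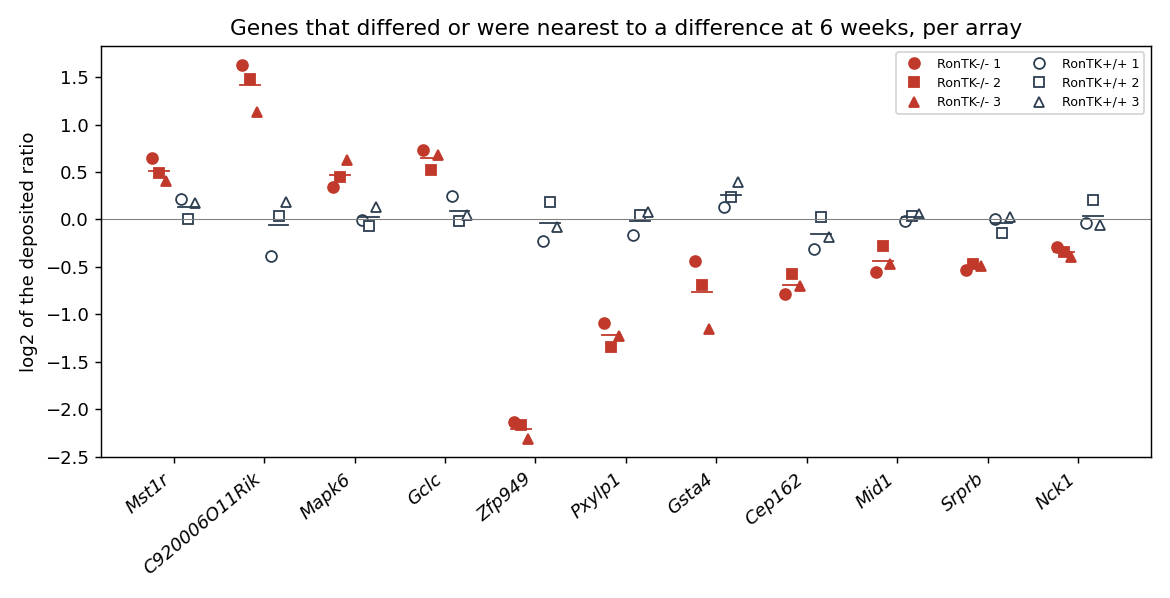
Log2 of the deposited ratio on each array for Mst1r, the 3 called genes and 7 chosen genes that were not called. Filled markers stand for RonTK-/- arrays, open markers for RonTK+/+ arrays and bars for the group means. All of the 7 but Mid1 were on chromosome 9. Genes nearer to a call than Gclc and Cep162, such as Sertad1, are not shown. The 3 RonTK-/- arrays of Zfp949 lay between -2.31 and -2.13, below all RonTK+/+ arrays.

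All 3 called genes, like Mst1r itself, were on chromosome 9. In the order of the 1006 genes tested on that chromosome (RefSeq), C920006O11Rik was number 590, Zfp949 number 642, Pxylp1 number 683 and Mst1r number 794. Of the 21 genes with an unadjusted p under 0.001, 7 lay on chromosome 9, all within 60 genes of a called gene, and 14 lay elsewhere. The shares were 7 of 214 genes within that distance, 0 of 792 elsewhere on chromosome 9 and 14 of 17139 other placed genes. A share of 0.001 of all genes would pass that threshold with no difference between genotypes. The other 4 of those 7 were Mapk6, Gsta4, Srprb and Nck1, which were not called. Arrays lay apart for 41 of 214 genes in that window (19.2%), for 116 of 792 genes elsewhere on chromosome 9 (14.6%) and for 2435 of 17139 other placed genes (14.2%), beside 2605 of all 18193 genes (14.3%). The window was set around the called genes, which count among its 41 and among the 7.

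Mapk6 encodes an atypical MAP kinase. Its ratios were 1.27, 1.36 and 1.55 in RonTK-/- arrays, against 0.999, 0.956 and 1.09 in RonTK+/+ arrays, a difference of 0.45 ± 0.08 (SE, adjusted p = 0.324). Gsta4, a glutathione transferase that acts on lipid aldehydes, had ratios of 0.737, 0.618 and 0.449 in RonTK-/- arrays, against 1.10, 1.18 and 1.32 in RonTK+/+ arrays (-1.02 ± 0.21, adjusted p = 0.457). The arrays of Mapk6 and of Gsta4 lay apart, though neither gene was called. Srprb, a subunit of the receptor that docks ribosomes at the endoplasmic reticulum, had ratios of 0.694, 0.722 and 0.712 in RonTK-/- arrays, against 1.00, 0.906 and 1.02 in RonTK+/+ arrays (-0.46 ± 0.10, adjusted p = 0.457).

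Nck1, an adaptor between receptor kinases and the actin cytoskeleton, had ratios of 0.817, 0.787 and 0.760 in RonTK-/- arrays, against 0.978, 1.15 and 0.959 in RonTK+/+ arrays (-0.38 ± 0.08, adjusted p = 0.457). Probe sets of Nck1, Srprb and Mapk6 disagreed within each gene. For Nck1 a single probe set differed by -1.25, beside 0.14 and -0.04 for the others. Those of Srprb differed by -1.19, -0.56 and 0.37, and for Mapk6 a single probe set differed by 1.23, beside 0.09 to 0.31 for the others.

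Further genes of that stretch of chromosome 9 had arrays apart without a call. Ddx43, a DEAD-box helicase gene, had ratios of 0.300, 0.355 and 0.357 in RonTK-/- arrays, against 0.416, 1.75 and 1.30 in RonTK+/+ arrays. RonTK+/+ array 1 lay close to the RonTK-/- arrays there, and the Ddx43 difference of -1.55 ± 0.55 (adjusted p = 0.774) was -2.17 without it. Gclc, the catalytic subunit of the enzyme that limits glutathione synthesis, had ratios of 1.67, 1.44 and 1.6 in RonTK-/- arrays, against 1.19, 0.986 and 1.03 in RonTK+/+ arrays (0.56 ± 0.14, adjusted p = 0.765). Cep162, a centriole and cilium gene, differed by -0.53, Zbtb38, a zinc finger protein that binds methylated DNA, by -0.35, and Tent5a, a poly(A) polymerase gene, by 0.66. A single probe set of Cep162 differed by -1.13, so its probe sets were unlike in size. The RIKEN genes 9330159M07Rik and 9430037G07Rik differed by 0.71 and 0.48, and were named after their values were seen.

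**Figure D3:**
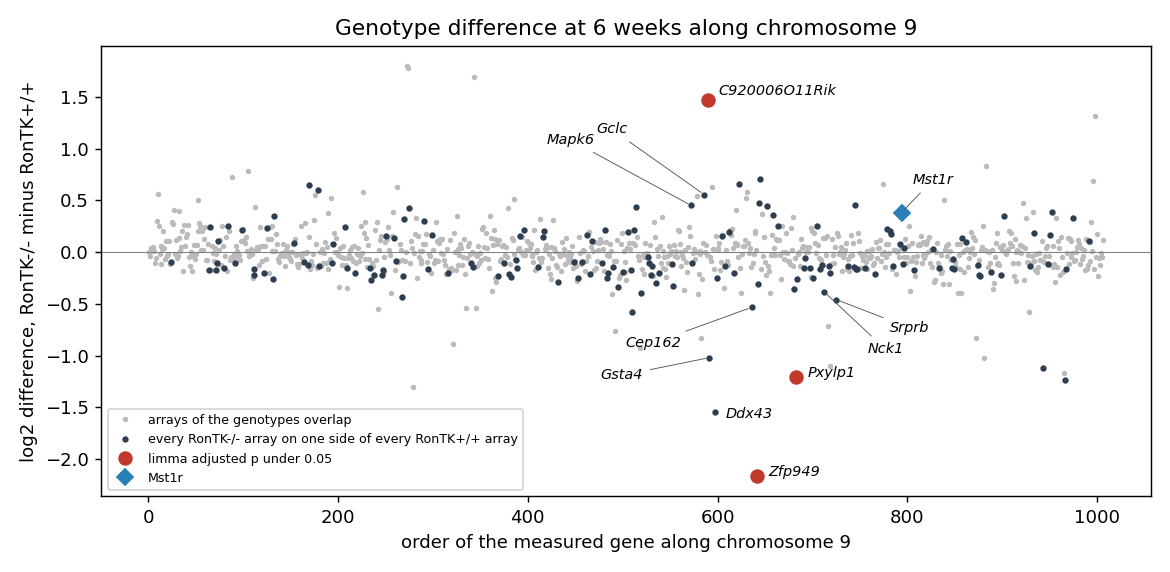
Log2 difference between genotypes (vertical axis) for the 1006 tested genes in their order along chromosome 9 (horizontal axis), with dark points for genes whose arrays lay apart, red points for called genes and a blue diamond for Mst1r. The called genes stood at orders 590, 642 and 683, before Mst1r at 794.

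Tested singly, 10 of 45037 probe sets were called (0.0222%). They were both probe sets of Zfp949, a pair of Pxylp1, and a single probe set each of C920006O11Rik, Mapk6, Nck1, Srprb and Tmem30a, and a probe set with no gene symbol. Tmem30a, on chromosome 9, encodes a subunit of phospholipid flippases. Its called probe set differed by 0.77, while the mean over its 5 probe sets differed by 0.15 ± 0.08 and was not called (adjusted p = 0.822).

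Outside chromosome 9, the gene nearest to a call was Mid1, an X-linked ubiquitin ligase gene. Its ratios were 0.683, 0.822 and 0.722 in RonTK-/- arrays, against 0.991, 1.03 and 1.04 in RonTK+/+ arrays. The arrays lay apart, and Mid1 differed by -0.46 ± 0.07 (SE, adjusted p = 0.0795). Without RonTK-/- array 2 it was called, at -0.54 (adjusted p = 0.0163). The probe sets of Mid1 agreed in direction but not in size, at -0.98, -0.26 and -0.14, and the arrays of the last overlapped. With the median of probe sets Mid1 differed by -0.23 (limma adjusted p = 0.767). Sertad1, a gene of cyclin-dependent kinase regulation, had ratios of 1.16, 1.07 and 1.21 in RonTK-/- arrays, against 0.776, 0.861 and 0.867 in RonTK+/+ arrays (0.46 ± 0.09, adjusted p = 0.361).

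Further genes had arrays apart and a small unadjusted p. Higher in RonTK-/- arrays but not called were Tbc1d8b (0.23), the zinc finger genes Zfp131 (0.27), Zkscan3 (0.39), Prdm15 (0.33) and Zfp12 (0.25), and Pde12, a mitochondrial RNA exonuclease gene (0.30). The probe sets of Zkscan3 agreed in direction but not in size, at 0.21, 0.22 and 0.72. Erdr1 differed by 0.55, but its pair of probe sets disagreed, at 1.11 and -0.01. Lower in RonTK-/- arrays but not called were Irgc1, a GTPase gene (-0.29), the transcription factor gene Bhlha9 (-0.36), Tnfsf13os (-0.21), Afm, a vitamin E-binding plasma protein gene (-0.26), the odorant receptor gene Olfr480 (-0.22) and Scgb3a2, a secretoglobin gene (-0.25). Their adjusted p ran from 0.399 for Tbc1d8b to 0.765.

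Gene lists were described by the signs of their members, since 3 against 3 arrays cannot go below 0.1 in a two-sided exact permutation test. Over all genes, 8579 lay above 0 and 9614 below 0, with a median difference of -0.01 and arrays apart upward for 1009 (5.55%) and downward for 1596 (8.77%). Of the 34 lists, 16 for cell types and 18 for processes, 0 held a gene called by limma over all genes. The mean of the list lay apart between the genotypes for 2 lists, the Ron pathway and the immediate early genes, and overlapped for the other 32. Among random orders of 3 against 3 arrays, a share of 0.1 lies apart in either direction, and 14.3% of single genes did. The count of 2 lists exceeds neither share, so it is no result about these lists.

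The Ron pathway list had 32 measured genes, of which 17 lay above 0 and 15 below. Its median was 0.02 (0.002 without RonTK-/- array 1 and 0.004 without RonTK+/+ array 2). Its mean log2 ratio was 0.02, 0.03 and 0.02 in RonTK-/- arrays, against -0.04, -0.03 and -0.01 in RonTK+/+ arrays, so the arrays lay apart by a very small amount. Arrays of single members lay apart upward for Mst1r, Spint2 and Pik3r1 and downward for Hgfac, Gab2, Gsk3b and Nck1. These 3 upward and 4 downward members of 32 stand beside the 5.55% and 8.77% of all genes.

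Among the proteases that activate the ligand, Hgfac, the hepatocyte growth factor activator, had ratios of 0.857, 0.932 and 0.958 in RonTK-/- arrays, against 1.04, 1.04 and 1.03 in RonTK+/+ arrays (-0.18 ± 0.09, adjusted p = 0.804). Hpn and St14, which encode membrane serine proteases, had overlapping arrays and differed by 0.12 and 0.28. The plasma protease genes F11, F12 and Klkb1 differed by -0.02, -0.06 and 0.05. Of the inhibitors of these proteases, Spint2 had ratios of 1.05, 1.02 and 1.07 in RonTK-/- arrays, against 1.00, 0.840 and 0.884 in RonTK+/+ arrays (0.21 ± 0.09, adjusted p = 0.798), while Spint1 differed by -0.03. The related receptor gene Met differed by -0.09, and Hgf, which encodes its ligand, by -0.06.

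Below the receptor, Pik3r1, the regulatory subunit of PI3 kinase, had the largest difference among members whose arrays lay apart. Its ratios were 1.15, 1.47 and 1.38 in RonTK-/- arrays, against 1.01, 0.783 and 1.10 in RonTK+/+ arrays (0.47 ± 0.20, adjusted p = 0.791). The catalytic subunit gene Pik3ca differed by 0.03. The adaptor genes Grb2, Shc1, Gab1, Gab2 and Crk differed by 0.12, 0.08, -0.02, -0.05 and 0.08, and the kinase genes Src, Akt1, Map2k1 and Gsk3b by -0.06, -0.09, 0.10 and -0.04. Csf2rb, the shared beta chain of cytokine receptors, differed by 0.56 with all arrays and by 0.06 without RonTK+/+ array 1.

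The immediate early list, of transcripts that answer growth factor and stress signals within minutes, had 28 measured genes, 20 above 0 and 8 below. Its mean was 0.07, 0.14 and 0.02 in RonTK-/- arrays, against -0.20, -0.00 and -0.11 in RonTK+/+ arrays, with a median difference of 0.14 that was 0.07 without RonTK+/+ array 1. Arrays lay apart upward for 3 members, Sertad1, Ier3 and Zfp36, and downward for Fosb and Fosl1, beside 5.55% and 8.77% of all genes. Ier3, a survival gene, had ratios of 1.18, 1.54 and 1.09 in RonTK-/- arrays, against 1.03, 0.660 and 0.725 in RonTK+/+ arrays (0.67 ± 0.26, adjusted p = 0.791). Zfp36, whose product destabilises cytokine transcripts, had ratios of 1.21, 1.56 and 1.24 in RonTK-/- arrays, against 0.546, 1.15 and 1.00 in RonTK+/+ arrays. Its difference of 0.63 was 0.31 without RonTK+/+ array 1. Junb, a subunit of the AP-1 factor, had overlapping arrays and differed by 0.52.

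Heat shock genes included 5 of 19 with arrays apart upward, namely Hspd1, Dnaja1, Dnajb1, Chordc1 and Ahsa1, and 0 downward. These stand beside 5.55% upward and 8.77% downward of all genes. The list had 14 genes above 0, a median of 0.10, and means of -0.05, -0.14 and -0.02 in RonTK-/- arrays, against 0.08, -0.49 and -0.30 in RonTK+/+ arrays. Without RonTK+/+ array 1 all 19 lay above 0, with a median of 0.22, and leaving out each of the others gave 0.10 to 0.13. RonTK+/+ array 2 held the lowest ratio of 13 of the 19 genes. Dnajb1, a co-chaperone of HSP70, had ratios of 1.21, 1.22 and 1.28 in RonTK-/- arrays, against 0.744, 1.00 and 0.956 in RonTK+/+ arrays (0.47 ± 0.12, adjusted p = 0.765). Dnaja1, another HSP70 co-chaperone, differed by 0.25 ± 0.07 (adjusted p = 0.765) and Ahsa1, an activator of HSP90, by 0.20. The inducible HSP70 genes Hspa1a and Hspa1b differed by 0.67 and 0.62, and their arrays overlapped.

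Epithelial and milk genes varied within each genotype. Luminal epithelium genes had means of -0.07, -0.22 and 0.17 in RonTK-/- arrays, against 0.15, -0.58 and -0.07 in RonTK+/+ arrays, and RonTK+/+ array 2 held the lowest ratio of 18 of the 21 genes. Of those 21 genes 17 lay above 0, with a median of 0.11. Leaving out RonTK+/+ array 1 gave a median of 0.28 with 19 of 21 above 0, leaving out RonTK+/+ array 2 gave -0.10, and leaving out each of the others gave 0.04 to 0.23. The luminal factor gene Gata3 had ratios of 0.839, 0.683 and 1.15 in RonTK-/- arrays, against 1.00, 0.455 and 0.689 in RonTK+/+ arrays. Esr1, the estrogen receptor, had ratios of 0.870, 0.823 and 0.840 in RonTK-/- arrays, against 1.08, 0.936 and 1.09 in RonTK+/+ arrays. The Esr1 arrays lay apart with the lower ratios in RonTK-/- glands, and the difference of -0.29 ± 0.16 was not called (adjusted p = 0.824).

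Milk protein and secretion genes (21 measured, 17 above 0, median 0.19) had means of -0.25, 0.39 and 0.20 in RonTK-/- arrays, against 0.18, -0.69 and -0.01 in RonTK+/+ arrays. The beta-casein gene Csn2 had ratios of 0.135, 1.47 and 0.840 in RonTK-/- arrays, against 1.39, 0.0693 and 0.441 in RonTK+/+ arrays. It was thus lowest in RonTK-/- array 1 and RonTK+/+ array 2, and the alpha-casein genes Csn1s1 and Csn1s2a were lowest in the same arrays. The milk list median was 0.39 without RonTK+/+ array 1, -0.03 without RonTK-/- array 2 and -0.12 without RonTK+/+ array 2. Mfge8, a milk fat globule protein gene, had ratios of 1.15, 1.19 and 1.19 in RonTK-/- arrays, against 1.00, 1.01 and 0.992 in RonTK+/+ arrays (0.23 ± 0.14, adjusted p = 0.836), and its arrays lay apart.

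Hormone and growth factor lists stayed near 0. The estrogen and progesterone response list had 9 of 16 genes above 0 and a median of 0.03 (-0.04 to 0.09 with an array left out). Of these 16, Wnt5a, Tff1 and Esr1 were apart downward and Myb upward, beside 8.77% and 5.55% of all genes. Of 28 genes of the growth hormone, EGF and FGF axis 12 lay above 0, with a median of -0.02 (-0.08 to 0.00 with an array left out). Egf, the EGF precursor gene, had ratios of 0.232, 0.218 and 0.220 in RonTK-/- arrays, against 1.63, 0.233 and 0.249 in RonTK+/+ arrays. The arrays lay apart, but the Egf difference of -1.03 came from RonTK+/+ array 1 and was -0.11 without it. In the Wnt list 9 of 28 genes lay above 0 (median -0.09), against 13 of 28 and a median of -0.01 without RonTK+/+ array 1, and the arrays of Wnt5a (-0.40) and of Rspo3, a potentiator of Wnt signals (-0.46), lay apart downward. Without RonTK+/+ array 1 these were -0.25 for Wnt5a and -0.29 for Rspo3. They were 2 of 28 Wnt genes apart downward, beside 8.77% of all genes.

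Basal and myoepithelial genes had 12 of 16 above 0 and a median of 0.11. The median was 0.21 without RonTK+/+ array 1 (16 of 16 above 0), 0.02 without RonTK-/- array 1 and -0.01 without RonTK+/+ array 2. Among them was Tagln, a smooth muscle actin-binding protein gene, with ratios of 1.12, 0.960 and 1.13 in RonTK-/- arrays, against 0.936, 0.778 and 0.900 in RonTK+/+ arrays (0.30 ± 0.16, adjusted p = 0.819). Cell cycle genes (9 of 34 above 0, median -0.10) had means of -0.48, -0.40 and -0.06 in RonTK-/- arrays, against -0.65, 0.04 and -0.16 in RonTK+/+ arrays. RonTK+/+ array 1 had the lowest ratio of 23 of these 34 genes, and the median was -0.26 without it and 0.05 without RonTK+/+ array 2. E2f1, a transcription factor of S phase entry, and Tyms, the thymidylate synthase gene, had arrays apart downward, at -0.12 and -0.07. They were 2 of 34 genes, beside 8.77% of all genes.

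Skeletal muscle and lymphoid transcripts moved in opposite directions in RonTK+/+ array 1. Muscle genes had means of -3.78, -5.66 and -5.42 in RonTK-/- arrays, against 0.59, -5.46 and -3.95 in RonTK+/+ arrays. All 23 lay below 0, with a median of -2.12 that was -0.33 without RonTK+/+ array 1. Actn3, a fast-fibre sarcomere gene, had ratios of 0.0272, 0.01 and 0.0153 in RonTK-/- arrays, against 1.56, 0.0158 and 0.068 in RonTK+/+ arrays. The lowest ratio in the table is 0.01 and values there have no order, so differences that rest on them are bounds. With RonTK+/+ array 1 left out, 5 of the 23 muscle genes lay above 0, and without RonTK+/+ array 2 the median was -3.37.

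B lymphocyte genes had means of 0.21, 0.54 and 0.39 in RonTK-/- arrays, against -2.23, 0.68 and 0.06 in RonTK+/+ arrays. Of 15 genes 14 lay above 0, with a median of 0.73, against 8 above 0 and a median of 0.03 without RonTK+/+ array 1. Cd79b, a subunit of the B cell receptor, had ratios of 1.24, 1.49 and 1.40 in RonTK-/- arrays, against 0.0831, 1.79 and 1.00 in RonTK+/+ arrays. T lymphocyte genes (16 of 16 above 0, median 1.00, and 0.19 without RonTK+/+ array 1) had means of 0.43, 0.48 and 0.60 in RonTK-/- arrays, against -2.17, 0.60 and 0.05 in RonTK+/+ arrays. The T cell receptor gene Cd3g had ratios of 1.47, 1.57 and 1.66 in RonTK-/- arrays, against 0.0518, 1.77 and 1.00 in RonTK+/+ arrays. Of the 16 T lymphocyte genes Cd27, Lat and Cd3e had arrays apart upward, beside 5.55% of all genes. The Lat difference of 1.02 was 0.38 without RonTK+/+ array 1.

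Lymph node stroma genes (8 of 8 above 0, median 0.30, and 0.13 without RonTK+/+ array 1) and MHC class II genes (12 of 12 above 0, median 0.43, and -0.06 without that array) were lowest on average in the same array. Without RonTK+/+ array 2 the medians of the B lymphocyte, T lymphocyte, lymph node stroma and MHC class II lists were 1.25, 1.5, 0.58 and 0.81. Cxcl13, a chemokine of B cell follicles, had ratios of 1.12, 1.52 and 1.48 in RonTK-/- arrays, against 0.0954, 1.48 and 1.09 in RonTK+/+ arrays. Glycam1, an adhesion ligand of high endothelial venules and also a milk gene, had ratios of 1.22, 1.39 and 1.29 in RonTK-/- arrays, against 0.01, 1.26 and 1.12 in RonTK+/+ arrays. Macrophage genes, from a cell type that makes Ron, had means of 0.07, -0.04 and 0.26 in RonTK-/- arrays, against -0.52, 0.19 and 0.17 in RonTK+/+ arrays. Of 20 macrophage genes 14 lay above 0 (median 0.16), and 3 did without RonTK+/+ array 1 (median -0.09). The macrophage median also turned without RonTK-/- array 3 (-0.03), and 0 of its genes had arrays apart.

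**Figure D4:**
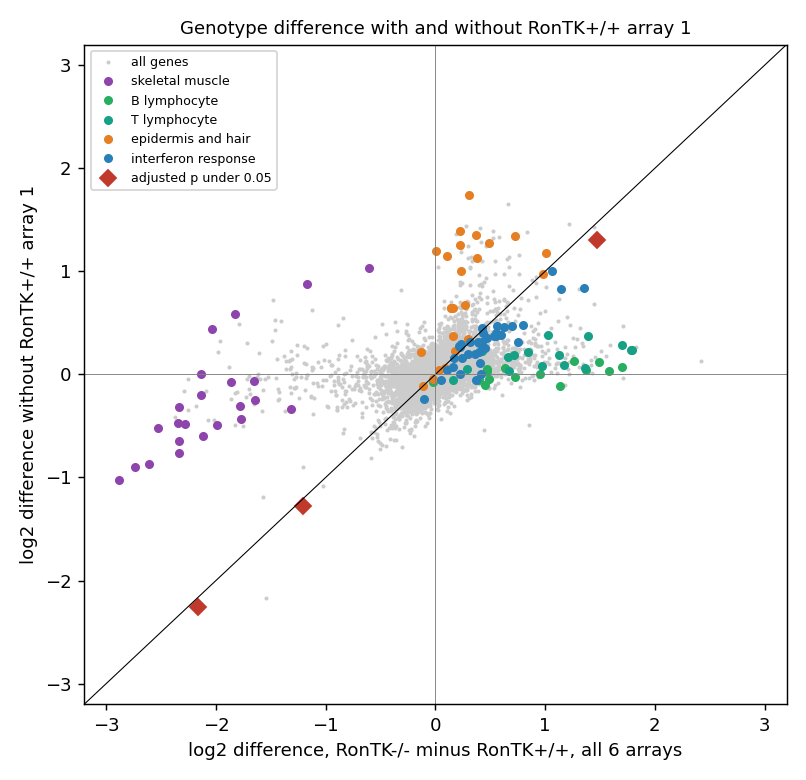
Log2 difference between genotypes without RonTK+/+ array 1 (vertical axis) against that with all 6 arrays (horizontal axis), a point for each of 18193 genes, with 5 lists in colour, called genes as red diamonds and the line of equal values. Without that array the muscle median was -0.33 instead of -2.12 and the T lymphocyte median 0.19 instead of 1.00, while the 3 called genes stayed near the line.

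Genes over 1 log2 unit apart show the same dependence. With all 6 arrays, 74 genes differed by more than 1 and 121 by less than -1, and without RonTK+/+ array 1 these counts were 41 and 6. Epidermis and hair genes had means of 2.31, -0.17 and -0.02 in RonTK-/- arrays, against 1.48, -0.10 and -0.04 in RonTK+/+ arrays. RonTK-/- array 1 held the highest ratio of 23 of the 24 genes. The suprabasal keratin gene Krt10 had ratios of 20.3, 0.917 and 0.912 in RonTK-/- arrays, against 11, 0.916 and 1.05 in RonTK+/+ arrays. The epidermal median of 0.20 was 0.82 without RonTK+/+ array 1 and -0.45 without RonTK-/- array 1, so its sign turned with which array was left out.

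Interferon response genes lay mostly above 0, and their size came largely from RonTK-/- array 3. Of 36 measured genes 35 lay above 0, 0 were called and 0 had arrays apart, with a median of 0.41. Means were -0.16, 0.22 and 0.92 in RonTK-/- arrays, against -0.43, 0.09 and -0.03 in RonTK+/+ arrays, and RonTK+/+ array 1 held the lowest ratio of 24 of the 36 genes. The median was 0.12 without RonTK-/- array 3 and 0.31 without RonTK+/+ array 1. Mx1, an antiviral GTPase gene, had ratios of 1.11, 2.14 and 4.67 in RonTK-/- arrays, against 0.424, 1.55 and 1.00 in RonTK+/+ arrays (1.36 ± 0.49, adjusted p = 0.774). The signalling genes Stat2 and Irf9, which form part of the factor that binds interferon-stimulated response elements, differed by 0.47 ± 0.15 and 0.55 ± 0.18 (adjusted p = 0.774 for each).

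The 250 bases before the gene start are shown for Ifit1, Cxcl10 and Igtp, the members with the largest differences among those that hold the core of that element in this stretch. Of the 36 measured genes 25 had a promoter entry in RefSeq (GRCm38.p6), and 13 of these held GAAANNGAAA on either strand, printed as TTTCNNTTTC where it lies on the other strand (52%), against 453 of 14452 genes (3.13%). Capitals mark these matches, some of which overlap in other members, and each sequence runs 5′ to 3′ on the strand of its gene. Ifit1 lies at chr19:34640639-34640888 on the plus strand, Cxcl10 at chr5:92348890-92349139 on the minus strand and Igtp at chr11:58199306-58199555 on the plus strand.
Ifit1: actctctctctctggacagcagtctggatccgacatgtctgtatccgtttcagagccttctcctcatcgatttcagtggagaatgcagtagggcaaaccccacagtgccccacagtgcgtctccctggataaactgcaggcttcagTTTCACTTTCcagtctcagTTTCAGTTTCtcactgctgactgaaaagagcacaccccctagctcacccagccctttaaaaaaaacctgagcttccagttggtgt
Cxcl10: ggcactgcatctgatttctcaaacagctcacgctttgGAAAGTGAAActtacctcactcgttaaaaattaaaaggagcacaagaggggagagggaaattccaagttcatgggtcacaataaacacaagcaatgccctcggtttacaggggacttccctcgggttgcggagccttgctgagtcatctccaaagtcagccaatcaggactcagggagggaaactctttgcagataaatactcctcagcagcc
Igtp: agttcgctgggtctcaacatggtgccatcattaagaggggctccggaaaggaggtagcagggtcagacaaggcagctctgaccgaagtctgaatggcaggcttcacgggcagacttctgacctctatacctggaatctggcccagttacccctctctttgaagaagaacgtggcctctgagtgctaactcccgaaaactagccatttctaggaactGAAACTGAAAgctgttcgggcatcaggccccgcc
A match is a description of these letters and does not show that a factor binds there. The list was made of genes chosen as interferon responsive, so its share of matches is no result about genotype or these arrays.

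Ifit1, an RNA-binding antiviral gene with a pair of matches, had ratios of 0.657, 1.80 and 4.73 in RonTK-/- arrays, against 0.792, 0.827 and 0.941 in RonTK+/+ arrays (1.06 ± 0.51, adjusted p = 0.804). Its lowest ratio of all was thus also in a RonTK-/- array. Cxcl10, a chemokine for activated T cells, had ratios of 1.03, 3.45 and 3.01 in RonTK-/- arrays, against 0.646, 1.53 and 1.00 in RonTK+/+ arrays (1.14 ± 0.46, adjusted p = 0.791). Igtp, an interferon-inducible GTPase gene, differed by 0.80 ± 0.39 with the highest log2 ratio in RonTK-/- array 3 (1.31). None of these differences was called.

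**Figure D5:**
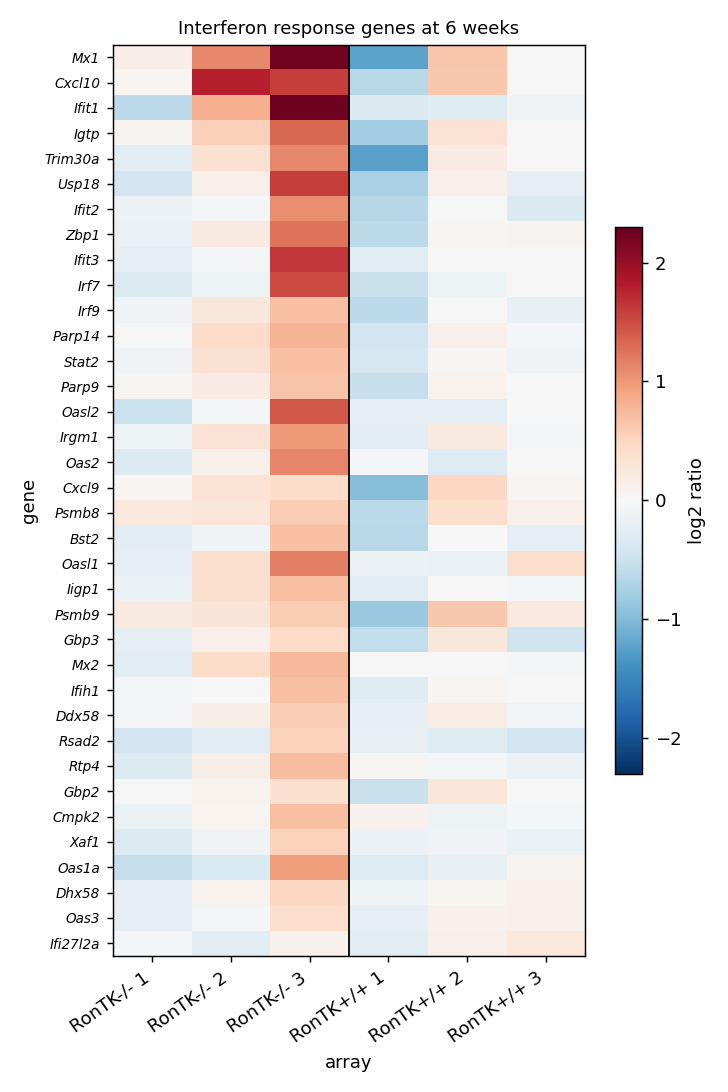
Log2 ratio of each of 36 interferon response genes (rows, ordered by the difference between genotypes) on each of the 6 arrays (columns, RonTK-/- left and RonTK+/+ right of the line). RonTK-/- array 3 has the highest ratio for 32 of the 36 genes, and RonTK-/- array 1 lies at or below 0 for most.

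Adipose and mitochondrial lists also followed single arrays. White adipocyte genes (11 of 15 above 0, median 0.10, and 0.02 to 0.18 with an array left out) had means of 0.29, 0.20 and 0.17 in RonTK-/- arrays, against -0.20, 0.10 and 0.34 in RonTK+/+ arrays. Pparg, the master regulator of fat cells, had ratios of 1.5, 1.30 and 1.37 in RonTK-/- arrays, against 0.942, 1.12 and 1.11 in RonTK+/+ arrays (0.40 ± 0.20, adjusted p = 0.804), and its arrays lay apart. Brown adipocyte genes (0 of 11 above 0, median -0.44) had means of 0.23, -0.76 and -1.22 in RonTK-/- arrays, against 0.52, -0.62 and -0.05 in RonTK+/+ arrays. Ppargc1a, a coactivator of mitochondrial biogenesis that muscle also expresses, had ratios of 0.533, 0.337 and 0.223 in RonTK-/- arrays, against 1.21, 0.589 and 0.689 in RonTK+/+ arrays (-1.21 ± 0.65, adjusted p = 0.819). Its arrays lay apart, and the difference was -0.90 without RonTK+/+ array 1. The brown list median was -0.16 without RonTK+/+ array 1 and -0.12 without RonTK-/- array 3.

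Respiratory chain genes (2 of 29 above 0, median -0.10) had means of -0.11, -0.19 and -0.42 in RonTK-/- arrays, against 0.24, -0.30 and -0.16 in RonTK+/+ arrays. RonTK+/+ array 1 held the highest ratio of 26 of them and RonTK-/- array 3 the lowest of 27, and the median was -0.00 without RonTK+/+ array 1 and -0.03 without RonTK-/- array 3. Lipogenesis genes (15 of 24 above 0, median 0.05, and -0.03 to 0.14 with an array left out) and sterol synthesis genes (16 of 19 above 0, median 0.07, and 0.00 to 0.18) had 0 members with arrays apart. Of 24 glutathione and xenobiotic genes 13 lay above 0 (median 0.01, and 0.01 to 0.06 with an array left out), and the chromosome 9 genes Gclc and Gsta4 were the members with arrays apart, in opposite directions.

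The other lists are given here with their medians and, for most, the range of the median when an array was left out. Fibroblast genes had 5 of 16 above 0 (median -0.05, range -0.12 to 0.03) and endothelial genes 5 of 15 (median -0.03, range -0.07 to 0.01). Extracellular matrix and protease genes had 8 of 23 above 0 (median -0.06, range -0.10 to -0.02). Fn1, which encodes fibronectin, had ratios of 0.794, 0.596 and 0.845 in RonTK-/- arrays, against 0.933, 0.973 and 0.974 in RonTK+/+ arrays (-0.38 ± 0.20, adjusted p = 0.814), and its arrays lay apart. Medians were 0.00 for TGF-beta and BMP genes (13 of 25 above 0, range -0.03 to 0.03) and 0.05 for the unfolded protein response (14 of 21, range -0.00 to 0.10). The circadian clock median of 0.09 (10 of 17 above 0) was -0.04 without RonTK-/- array 1. Mast cell genes had 4 of 10 above 0 and a median of -0.03, against 9 of 10 and 0.16 without RonTK+/+ array 1. Schwann cell and nerve genes had 1 of 9 above 0 and a median of -0.08, against 7 of 9 and 0.05 without that array. Medians were -0.07 for neutrophil genes (4 of 10 above 0, range -0.13 to -0.04) and -0.29 for erythroid genes (1 of 4, range -0.38 to -0.17). Only 4 of the 9 erythroid genes listed were measured. Arrays lay apart downward for 2 of these 4, beside 8.77% of all genes.

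Whether a difference at 6 weeks was unlike that at the other ages was tested as an interaction, the 6-week difference minus the mean of those at 5 and 7 weeks. In limma 0 of 18193 genes were called (0%), with 1505 at an unadjusted p under 0.05 and a smallest adjusted p of 0.601. A share of 0.05 of all genes would pass the unadjusted threshold with no interaction. With gene-by-gene array weights 1 gene was called, and with weights by REML, which did not converge, 1632 were. The 3 called genes differed in the same direction at 5, 6 and 7 weeks, by -2.38, -2.16 and -2.05 for Zfp949, by -1.10, -1.20 and -1.24 for Pxylp1 and by 0.92, 1.47 and 1.73 for C920006O11Rik.

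The genes nearest to an interaction differed by small amounts. Bhlha9 had an interaction of -0.52 ± 0.10 and differed by -0.36 at 6 weeks, beside 0.15 at 5 weeks and 0.16 at 7 weeks. Sertad1 had 0.52 ± 0.11 and differed by 0.46 at 6 weeks, beside -0.16 at 5 weeks and 0.04 at 7 weeks. The mitochondrial carrier gene Slc25a18 (-0.47), the phosphate transporter gene Slc34a3 (-0.44), the mucin gene Muc5ac (-0.36) and Zfp12 (0.35) followed, with an adjusted p of 0.601 for each of the 6 genes. No gene was thus shown to differ at 6 weeks alone.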

How the data were processed

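Total RNA of whole mammary glands was taken up in TriZol, cleared of fat by centrifugation, amplified, biotin-labelled and run on Affymetrix GeneChips for the mouse genome, per the labels' protocols. The authors deposited 1 linear ratio per probe set and array. The unit was found from the values. Neither the background correction and baseline of the authors' ratio nor any batch label is stated in the sources used here.

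From these, log2 of the deposited ratio was taken with no pseudocount, and a gene's value is the mean over its probe sets with 1 gene symbol. Of the 45037 probe sets left after 64 controls, 34945 had 1 symbol, 932 several and 9160 none, and 34741 of the first matched RefSeq (GRCm38.p6). The files name no build, so RefSeq positions served only to order genes on a chromosome and to place the printed promoters, which carry RefSeq's own coordinates. Using limma 3.58.1 in R 4.3.3, 6 group means were fitted over the 18 arrays (12 residual and 1.94 prior degrees of freedom), two-sided, with Benjamini-Hochberg adjustment over all genes, and was tested on simulated data. No array pair at 6 weeks was identical.

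The members, lists and naming rule were chosen with earlier results of these data known. Named were Mst1r and Mst1, every called gene, the 10 genes higher and the 10 lower with the smallest p among those not called whose arrays lay apart, the 6 with the smallest interaction p, up to 4 members of a list by p, and the 5 most extreme genes of each array. Neighbours on chromosome 9 could also be named. Further members of a list were named to account for it. Replicate numbers were checked as pairs at 6 weeks, where deviations of same-numbered arrays correlated at 0.43, 0.24 and 0.32. Arrays of unlike number correlated at -0.40 to 0.27 at that age, so the ranges overlapped. Same-numbered arrays correlated at 0.63, -0.82 and -0.76 at 5 weeks and at 0.26, -0.01 and -0.20 at 7 weeks. A pairing by number is thus not shown by the values, and the labels do not say what a number stands for. Alternatives covered normalization, array weights, the block, probe set summary, filters, thresholds and leaving out arrays.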

Additional observations from a re-analysis of the deposited data

Results flagged for a closer look

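The mean difference of the Ron pathway list was 0.0501 at 6 weeks, where every RonTK-/- array lay above every RonTK+/+ array, and -0.0506 at 5 weeks, where every RonTK-/- array lay below. The difference between the ages was not tested. A probe set with no gene symbol, outside the gene-level comparison, was among the 10 called probe sets. Its ratios were 0.33, 0.37 and 0.34 in RonTK-/- arrays, against 0.82, 1.11 and 1.00 in RonTK+/+ arrays, a log2 difference of -1.48.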

How the results depend on the processing

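The count of 3 called genes was 3 or 4 when any array at 6 weeks was left out (4 without RonTK-/- array 2, which added Mid1). It was 3 with the skeletal muscle covariate, the median of probe sets and robust eBayes, with the same genes each time. It was 0 after quantile normalization (smallest adjusted p 0.561), 1 in the 6 arrays alone (Zfp949), 10 over single probe sets, 8 with gene-by-gene array weights, which were added after seeing the data, and 223 with array weights by REML, which did not converge. In the 6 arrays alone Pxylp1 had an adjusted p of 0.185 and C920006O11Rik 0.751. The interaction count of 0 became 1 with gene-by-gene weights (Bhlha9) and 1632 with the REML weights. Mst1 reversed its sign with the REML weights, at 0.02999. The number of lists whose means lay apart, 2 with all arrays, ran from 3 to 7 when an array was left out, where fewer arrays have to lie apart. The cause of the other changes was not tested.

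With the replicate block (replicate numbers of each age) 1 gene was called, Zfp949. The calls of Pxylp1 (adjusted p = 0.0522) and C920006O11Rik (adjusted p = 0.229) were lost, and the interaction count stayed at 0. With a replicate block at 6 weeks only, added after seeing the data, the count was 3, with the same genes. Signal over background is unknown from ratios, so no gene was left out as dim. RonTK+/+ array 1 carries most of the large differences, and 3 arrays a group limit what can be called.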

Other observations

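Il6, Socs3 and Ccl12 were among the 5 genes highest in RonTK-/- array 2 relative to the other arrays. Il6, a cytokine of the acute-phase response, had ratios of 0.987, 4.93 and 1.15 in RonTK-/- arrays, against 1.00, 1.00 and 0.885 in RonTK+/+ arrays. Socs3, a feedback inhibitor of that cytokine's signal, had ratios of 1.19, 3.88 and 1.12 in RonTK-/- arrays, against 0.951, 0.915 and 0.881 in RonTK+/+ arrays, and its arrays lay apart without a call (0.92 ± 0.41, limma adjusted p = 0.797). The monocyte chemokine gene Ccl12 had ratios of 1.17, 4.48 and 2.93 in RonTK-/- arrays, against 0.317, 1.23 and 1.96 in RonTK+/+ arrays.

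In RonTK-/- array 3 the highest relative ratios were those of Olfm4, a secreted glycoprotein gene, and of Kcne2, a potassium channel subunit gene. Olfm4 had ratios of 0.731, 0.919 and 32.5 in RonTK-/- arrays, against 0.734, 0.719 and 3.96 in RonTK+/+ arrays. Kcne2 had ratios of 0.858, 0.882 and 10.1 in RonTK-/- arrays, against 1.00, 0.918 and 1.24 in RonTK+/+ arrays. Ido1, the tryptophan-degrading enzyme, had ratios of 0.697, 0.639 and 4.33 in RonTK-/- arrays, against 1.53, 0.255 and 1.29 in RonTK+/+ arrays.

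RonTK+/+ array 3 was lowest for Bhlhe40, a repressor linked to the circadian clock, at ratios of 1.31, 1.65 and 1.48 in RonTK-/- arrays, against 1.52, 0.770 and 0.567 in RonTK+/+ arrays. The Bhlhe40 difference of 0.76 was 1.16 without RonTK+/+ array 1 and was not called with all arrays (limma adjusted p = 0.804).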
